A study of Mus musculus with 16 samples.

Results

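The comparison described here is between glomerular extracts of female mice that lack oestrogen receptor α (ERα) and of wild type females, 2 weeks after they were given nephrotoxic serum. It rests on 4 of the 16 arrays of the series: the 2 arrays titled knockout at 2 weeks and the 2 titled wild type at 2 weeks, chosen by these titles alone. The wild type mice were C57Bl/6 and the knockouts B6.ERαKO, and both groups had received sheep serum intraperitoneally at 8 µl per g to induce nephritis against the glomerular basement membrane. The other 12 arrays came from the same strains untreated, at 18 hours and at 6 days, with 2 mice per strain and time. RNA came from 600 µl of extract of kidney cortex, and 10 ng of it was labelled for Affymetrix whole-transcript arrays. Neither the age of the mice nor the part of the ERα gene that is missing is given in the sources used here. Values are deposited log2 units of 1 probeset for each of 30142 genes, and a difference is knockout minus wild type in these units, given ± its standard error from 1 fit over all 16 arrays (limma, 2 arrays per group). A difference passed the test, or was called, where its limma p-value after Benjamini-Hochberg adjustment over all 30142 genes was under 0.05.

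ERα is a nuclear receptor that binds oestrogens and switches genes on or off, either at its own DNA element or through other transcription factors. Serum raised against the glomerular basement membrane deposits antibody on the filter between capillaries and podocytes. Complement and Fc receptors then recruit neutrophils and macrophages, and the injury spreads to mesangium, matrix and downstream tubules. Macrophages in injured kidney respond to interferons by expressing MHC class II, chemokines and interferon-induced GTPases.

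Esr1, the gene for ERα, was not lower in the arrays labelled knockout. Its values were 6.68 and 6.35 in the wild type arrays and 7.57 and 7.61 in the knockout arrays, so the groups did not overlap and the knockout was the higher. The difference of 1.08 ± 0.23 did not pass the test (limma adjusted p = 0.0874). The untreated arrays lay the same way, at 7.04 and 7.0 in wild type and 7.40 and 7.56 in knockout. Since the position of the probeset relative to the deleted part is not given in the sources used here, this value cannot check the deletion. Esr2, the gene for ERβ, read 4.35 and 4.33 in wild type and 4.24 and 4.20 in knockout, close to the low end of the scale. Of 8 measured oestrogen receptor genes and classical targets, 0 were called (limma), 6 lay lower in both knockout arrays without overlap, against 22.8% of all genes, and 1, Esr1, higher, against 13.9%. Their median difference was -0.21. Pgr, the progesterone receptor and a target of ERα in uterus, read 5.36 and 5.56 against 5.02 and 4.88 (difference -0.51 ± 0.12, limma adjusted p = 0.108). Greb1, a coregulator induced by ERα in breast, read 4.91 and 4.94 against 4.91 and 4.83, and these groups overlapped.

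The knockout arrays of 2 weeks differed from each other more than the arrays of any other group. Between them, 2834 genes differed by more than 1 log2 unit and 556 by more than 2, of which 405 were higher in replicate 1. The wild type arrays of 2 weeks differed by more than 1 unit at 1340 genes, and the other 6 groups at 76 to 594. The 18-hour arrays of replicate number 2 went against their labels in both genotypes: the mean of 16 genes with male-biased kidney expression was 9.84 and 15.68 in the 18-hour wild type arrays and 14.72 and 9.63 in the 18-hour knockout arrays. Those arrays enter the shared estimate of the spread, and the counts without them are given beside the results they touch. Each array is therefore shown separately below. Nothing in the labels says more of the animals than 2 mice per group. The p-values rest on a spread between mice that is shared by all groups, not on that of the 2-week mice alone. The other 6 groups, which varied less by the counts above, enter this spread. With only the 4 arrays of 2 weeks in the fit, which leaves fewer arrays for the spread, 0 genes were called (limma). With arrays weighted by their variability, 0 were called as well.

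**Figure D1:**
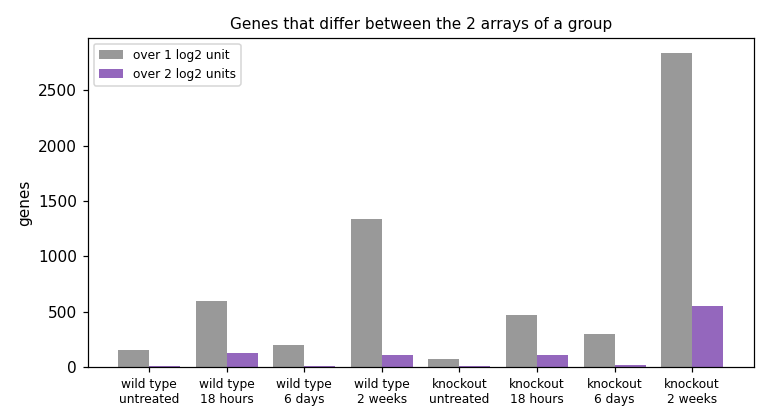
Number of genes (of 30142) whose deposited log2 values differed by more than 1 and by more than 2 units between the 2 arrays of each group. The knockout group at 2 weeks has the tallest bars, with 2834 and 556 genes, and the wild type group at 2 weeks follows for the smaller limit, with 1340.

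Of the 30142 genes, 55 (0.182%) passed the test for knockout minus wild type at 2 weeks, 44 lower in the knockout (0.146%) and 11 higher (0.0365%). Of the 44 lower genes, 3 belong to the macrophage list and 3 to the interferon γ list described below, and the differences of the 44 ran from 0.51 to 2.82 units in size with a median of -0.88. In all 44 both wild type arrays lay above all 4 untreated arrays, against 8610 of all 30142 genes. The called genes were chosen for a gap between these same wild type and knockout arrays. Part of that excess is therefore built into the choice. Knockout replicate 1 lay within the untreated range at 18 of the 44 and below it at 20. Over all genes these counts were 13101 and 6451. Knockout replicate 2 lay within that range at 19 and above it at 21, against 12861 and 9180 over all genes. For both knockout arrays the share within the untreated range was thus near that of all genes. An unadjusted p under 0.05 was reached by 5841 genes, 2193 higher and 3648 lower. Without the 18-hour arrays of replicate number 2 the count of called genes was 11, of which 7 were among the 55. Centring each array gave 18 calls split 9 higher to 9 lower, and quantile normalization gave 34 split 12 to 22, against 11 to 44 here.

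The largest of the lower differences was that of Lyz2. Lyz2, the lysozyme of macrophages and granulocytes, read 10.17 and 10.56 in wild type, 6.93 in knockout replicate 1 and 8.17 in replicate 2, beside 7.08 to 7.41 in the 4 untreated arrays. It was lower in the knockout by -2.82 ± 0.41 (limma adjusted p = 0.0357). Both knockout arrays thus lay more than 1 unit below both wild type arrays, and replicate 2 lay above the untreated range. Tyrobp, an adaptor that carries signals of activating receptors in myeloid and natural killer cells, read 7.01 and 7.20 in wild type and 5.50 and 5.94 in knockout, with a difference of -1.39 ± 0.17 (limma adjusted p = 0.0231). Clec7a, a receptor for fungal glucans, read 6.30 and 6.85 against 5.11 and 5.20 (difference -1.42 ± 0.20, limma adjusted p = 0.0299). Neither gene's groups overlapped, and the knockout arrays of Clec7a lay close to each other. In extracts of this kind, fewer cells of a type and less RNA per cell cannot be told apart.

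Ms4a6c, a membrane protein of myeloid cells, read 7.09 and 7.86 in wild type and 6.03 and 6.20 in knockout (difference -1.36 ± 0.22, limma adjusted p = 0.0421). Ccr2, the receptor by which inflammatory monocytes follow Ccl2, read 6.72 and 6.87 against 6.02 and 5.93, a difference of -0.82 ± 0.13 (limma adjusted p = 0.0421). Ly86, which pairs with a Toll-like receptor homologue on B cells and myeloid cells, read 6.69 and 6.90 against 5.77 and 5.87 and fell by 0.97 ± 0.10 (limma adjusted p = 0.0231). In these genes both knockout arrays stood together, below the wild type and close to the untreated arrays. Further leukocyte genes that passed, singled out after their values were seen, were Itgax (CD11c, 6.93 and 7.36 against 6.15 and 6.21), Nckap1l, Dock2, Unc93b1, Tlr1 and Themis2. Nckap1l and Dock2 govern actin movement in blood cells, and Unc93b1 brings Toll-like receptors to endosomes. Their differences were -0.96 ± 0.13 for Itgax, -0.94 ± 0.13 for Nckap1l, -0.85 ± 0.13 for Dock2, -0.76 ± 0.12 for Unc93b1, -0.67 ± 0.10 for Tlr1 and -0.70 ± 0.10 for Themis2.

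Called genes of the interferon γ pathway were Irf1, Ciita and Cxcl10. Irf1, a transcription factor induced by interferon γ, read 7.56 and 7.39 in wild type, 6.19 in knockout replicate 1 and 6.53 in replicate 2, with 6.29 to 6.40 in untreated arrays. Its difference was -1.11 ± 0.12 (limma adjusted p = 0.0231). The knockout arrays straddled the untreated range while the wild type arrays lay about 1 unit above it. Ciita, the master activator of MHC class II genes, read 6.72 and 6.56 against 5.57 and 5.84 (difference -0.93 ± 0.11, limma adjusted p = 0.0231). Cxcl10, a chemokine for activated T cells, read 5.82 and 6.36 against 4.92 and 5.15 (difference -1.05 ± 0.16, limma adjusted p = 0.0421). None of these 3 had overlapping groups.

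The bases upstream of the starts of Irf1 and Cxcl10 are printed because each holds an element by which interferon signals are known to reach genes. Both come from RefSeq (GRCm38.p6), 5′ to 3′ on the gene's strand, ending at the base before the start, with the matching bases in capitals. That of Irf1 spans chr11:53769764-53770013 on the plus strand and holds a match to the STAT element TTCNNNGAA starting 90 bases before the start. That of Cxcl10 spans chr5:92348890-92349139 on the minus strand and holds a match to the interferon element, on the opposite strand, starting 213 bases before the start.
Irf1: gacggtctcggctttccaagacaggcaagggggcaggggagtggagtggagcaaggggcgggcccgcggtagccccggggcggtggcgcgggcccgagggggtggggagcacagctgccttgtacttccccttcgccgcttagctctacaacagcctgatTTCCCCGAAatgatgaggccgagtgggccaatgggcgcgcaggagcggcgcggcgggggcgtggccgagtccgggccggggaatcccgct
Cxcl10: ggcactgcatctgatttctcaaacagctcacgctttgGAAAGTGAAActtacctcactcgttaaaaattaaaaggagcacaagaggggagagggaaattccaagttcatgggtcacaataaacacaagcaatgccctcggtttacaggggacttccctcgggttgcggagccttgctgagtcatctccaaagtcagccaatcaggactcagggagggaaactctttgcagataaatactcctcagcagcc
Searched on both strands over the 250 bases before the start, the STAT element was held by 5 of the 32 genes called lower that had a promoter in the table (15.6%), against 7.82% of the 17970 measured genes with one. The interferon element was held by 2 of the 32 (6.25%), against 3.39%. The palindromic oestrogen response element was held by none of the 32, against 0.0556%, a share too low for 32 promoters to show a lack of it. A match describes the letters and does not show binding.

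Outside leukocyte and interferon genes, Ncam1, a cell adhesion molecule, read 7.57 and 7.52 in wild type and 5.79 and 6.45 in knockout, with a difference of -1.43 ± 0.23 (limma adjusted p = 0.0472). Lif, a cytokine of the interleukin 6 family, read 5.83 and 6.43 against 5.04 and 5.11 (difference -1.05 ± 0.17, limma adjusted p = 0.0421). Gprin3 read 8.15 and 8.93 against 7.22 and 7.17, and its knockout arrays lay below the untreated range of 7.37 to 8.05. Stc2, a secreted glycoprotein, read 6.29 and 6.74 against 5.29 and 5.50. Gcnt4, a glycosyltransferase, and Sprr2f, a small proline-rich protein of epithelia, fell by 1.19 and 1.04 units. Lrriq1 and the non-coding RNA Platr22 fell by 1.03 and 1.06 units. The limma adjusted p of these last 6 genes lay between 0.0231 for Sprr2f and 0.0495 for Stc2.

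The 11 genes called higher in the knockout had a median difference of 1.38. In 8 of the 11 both wild type arrays lay below all untreated arrays, against 4764 of all 30142 genes. Part of this excess is likewise built into the choice of called genes. Of the 11, knockout replicate 1 lay within the untreated range at 4 and above it at 7. Replicate 2 lay within it at 5, above it at 5 and below it at 1. Over all genes replicate 1 lay within that range at 13101 and above it at 10590. Replicate 2 lay within it at 12861 of all genes, above it at 9180 and below it at 8101. Klf9, a zinc finger transcription factor that responds to glucocorticoid and thyroid hormone, read 8.14 and 8.33 in wild type and 9.61 and 9.61 in knockout, beside 9.41 to 9.71 untreated. Its difference was 1.38 ± 0.16 (limma adjusted p = 0.0231), and the knockout arrays agreed to the second decimal. Usp2, a deubiquitinase, read 8.50 and 9.06 against 10.85 and 10.47 (difference 1.88 ± 0.26, limma adjusted p = 0.0299). Sypl2, a membrane protein best known from muscle, read 8.35 and 8.33 against 10.31 and 10.00 (difference 1.81 ± 0.27, limma adjusted p = 0.0373). In all 3 genes the groups were far apart and the wild type arrays were the ones away from the untreated values.

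Alas1, the first enzyme of haem synthesis, read 8.80 and 9.40 in wild type and 10.97 and 10.36 in knockout (difference 1.56 ± 0.26, limma adjusted p = 0.0495). Pex11a, which drives division of peroxisomes, read 8.24 and 7.98 against 9.57 and 9.42 (difference 1.38 ± 0.18, limma adjusted p = 0.0299). Prr5, a component of the mTOR complex 2, and Susd3 rose by 1.03 ± 0.17 and 1.21 ± 0.16, with 8.29 and 8.43 against 9.31 and 9.46 for Prr5 and 7.89 and 7.67 against 9.08 and 8.89 for Susd3. Adamts6, a secreted metalloprotease, read 8.16 and 8.16 against 9.04 and 9.25 (difference 0.99 ± 0.15, limma adjusted p = 0.0357); here the knockout arrays lay above the untreated range of 8.20 to 8.54. The next genes by p-value missed the threshold: Cdc37l1, Lrig1 and Prodh all had a limma adjusted p of 0.0501. Prodh, the first enzyme of proline breakdown, read 10.29 and 10.53 against 12.23 and 12.42. Slc22a12, the urate carrier of the proximal tubule, read 12.47 and 12.60 against 16.51 and 14.34 (difference 2.89 ± 0.53, limma adjusted p = 0.0683), so that its replicate 2 lay between the wild type and replicate 1.

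The region before the start of Klf9 is printed as the counterpart among the higher genes (RefSeq, GRCm38.p6, chr19:23140976-23141225, plus strand, 5′ to 3′). Its capitals mark a match to the same STAT element starting 33 bases before the start.
Klf9: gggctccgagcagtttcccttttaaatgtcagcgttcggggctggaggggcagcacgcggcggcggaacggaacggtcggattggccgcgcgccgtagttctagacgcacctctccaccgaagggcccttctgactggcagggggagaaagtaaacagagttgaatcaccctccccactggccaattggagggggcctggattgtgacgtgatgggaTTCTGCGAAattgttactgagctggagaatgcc
Of the genes called higher, 9 had a promoter in the table, and 2 of the 9 (22.2%) held the STAT element. Neither the interferon element nor the oestrogen response element was found in these 9 windows. At shares of 3.39% and 0.0556% of all promoters, 9 windows are too few to show a lack of either. The STAT letters were thus present before genes of both directions.

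**Figure D2:**
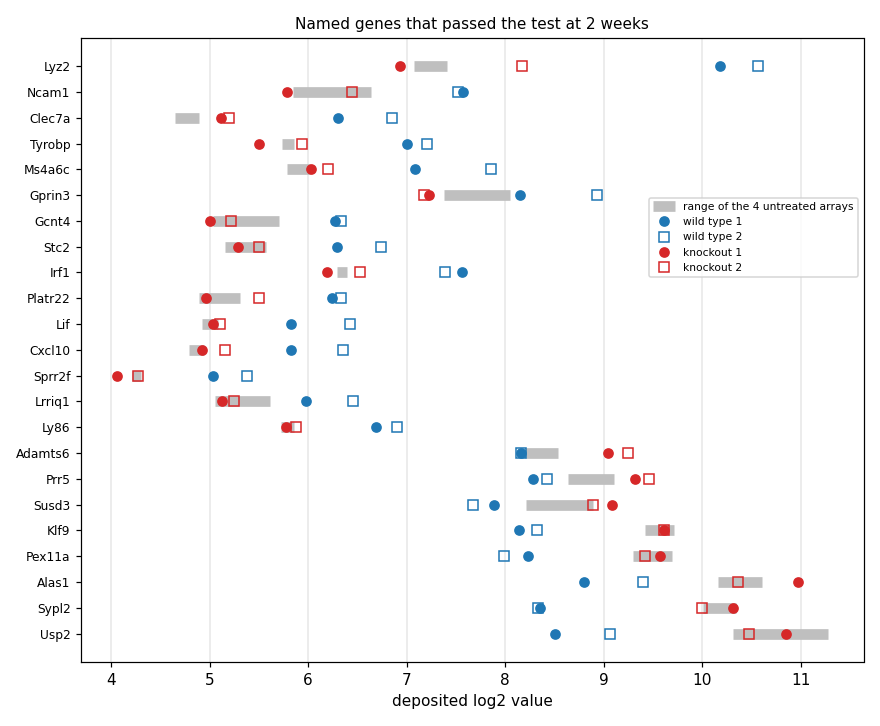
Deposited log2 values of the 23 named genes called at 2 weeks (15 lower in knockout, then 8 higher), with wild type arrays in blue, knockout arrays in red, replicate 1 as filled circles, replicate 2 as open squares and the range of the 4 untreated arrays as a grey bar. In each lower gene both blue points stand to the right of the grey bar, as for Lyz2, and in most higher genes they stand to its left, as for Usp2, while many red points lie on or near the bar.

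Set separately against the wild type arrays, the knockout arrays gave different counts. Replicate 1 alone gave 5331 called genes (17.7%), 2893 higher (9.6%) and 2438 lower (8.09%), whereas replicate 2 alone gave 0 (0%), with 2904 genes at an unadjusted limma p under 0.05 and a smallest adjusted p of 0.142. In these fits the lone array is assumed to vary like the other groups. All 55 called genes passed with replicate 1 alone and none with replicate 2 alone, where those named above had limma adjusted p from 0.155 to 0.319. Over all genes, both knockout arrays lay above both wild type arrays at 4192 (13.9%) and below both at 6872 (22.8%). Replicate 1 alone lay below both wild type arrays at 38.3% of genes and above both at 34.8%, and replicate 2 at 40.4% and 21.8%. Leaving out wild type replicate 1 gave 4480 calls and leaving out wild type replicate 2 gave 9, of which 2, Irf1 and Ly86, were among the 55. The other 7 included Gbp2, Gbp4, Igtp, Irgm1 and Irgm2, all GTPases induced by interferon γ.

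The proximal tubule genes moved with this pattern. The mean over 18 measured proximal tubule markers was 12.79 and 13.94 in the wild type arrays, 15.19 in knockout replicate 1 and 13.70 in replicate 2, against 15.04 to 15.65 untreated. Replicate 1 was above both wild type arrays at 15 of the 18, and both knockout arrays were above both wild type arrays at 7. A tubule covariate was formed as this mean minus the mean of the podocyte list, described below, in each array. With this covariate in the fit, 0 genes were called (0 of 55, limma) and 4272 had an unadjusted limma p under 0.05. The named called genes then had limma adjusted p from 0.0975 to 0.199 with the same direction. No cause of the difference between the knockout arrays was tested.

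The gene lists below were described by counts of members, with the mean of each array over the members. Every count of members without overlap is to be read beside the shares of all genes, 22.8% lower and 13.9% higher. Counts of called members are to be read beside the 0.146% of all genes called lower and the 0.0365% called higher. In the macrophage and monocyte list, 3 of 23 measured members were called, all lower (Lyz2, Tyrobp and Ccr2), against 0.146% of all genes. At 14 of 23 both knockout arrays lay below both wild type arrays, against 22.8% of all genes. The median difference was -0.70, against -0.06 over all genes. The list mean was 7.15 and 7.24 in wild type, 6.29 in knockout replicate 1 and 6.70 in replicate 2, with 6.29 to 6.42 untreated. Members were not alike. Adgre1 (F4/80), a surface marker of resident macrophages, read 6.22 and 6.26 against 5.62 and 5.70, and Ctss, a protease that processes antigen, read 7.33 and 7.14 against 5.94 and 6.38. Neither passed the test (limma adjusted p = 0.0722 for Adgre1 and 0.092 for Ctss). Cd68 and C1qa overlapped between groups, Cd68 at 6.95 and 6.86 against 6.31 and 6.88 and C1qa at 6.65 and 5.97 against 6.35 and 6.38. Ptprc (CD45), the common marker of leukocytes, was looked at after its values were seen and read 7.60 and 7.84 against 6.44 and 6.68 (limma adjusted p = 0.0501); it was among the 11 genes called without the 18-hour arrays of replicate number 2.

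Of the interferon γ list, 3 of 16 measured members were called lower, against 0.146% of all genes. At 13 of 16 both knockout arrays lay below both wild type arrays, against 22.8% of all genes, with a median difference of -1.10. Its mean was 7.47 and 7.09 in wild type, 6.16 and 6.41 in knockout replicates 1 and 2, and 6.12 to 6.48 untreated. Both knockout arrays therefore lay within the untreated range. Tap1, the peptide transporter of MHC class I loading, read 9.36 and 8.72 against 7.31 and 7.86 (difference -1.46 ± 0.25, limma adjusted p = 0.0501). Psmb8, an immunoproteasome subunit, read 6.16 and 6.17 against 5.34 and 5.65 with the same adjusted p. The GTPases Igtp and Iigp1, which attack vacuoles of intracellular microbes, read 9.79 and 8.60 against 7.83 and 7.55 and 8.15 and 7.28 against 6.26 and 6.64, without overlap and without passing the test. For Igtp the wild type arrays were farther apart than the knockout arrays.

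The type I interferon list had 0 of 17 members called (limma), and 14 of 17 lay below both wild type arrays in both knockout arrays, with a median of -0.68. Ifit1, an antiviral RNA-binding protein, read 6.67 and 6.65 against 5.69 and 5.93 (difference -0.85 ± 0.17, limma adjusted p = 0.0792). Isg15, a ubiquitin-like protein, separated narrowly, at 5.75 and 5.60 against 5.51 and 5.58. The list mean of knockout replicate 1 was 6.31 and of replicate 2 6.69, against 7.22 and 7.07 in wild type. A gap in the same direction was present earlier. At 6 days the means were 7.25 and 7.10 in wild type and 6.56 and 6.78 in knockout. Untreated means were 6.64 and 6.66 in wild type and 6.59 and 6.41 in knockout.

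All 5 measured MHC class II genes lay below both wild type arrays in both knockout arrays, and none was called. H2-Ab1, a class II β chain, read 13.87 and 13.77 in wild type, 11.09 in knockout replicate 1 and 12.33 in replicate 2, against 10.97 to 11.46 untreated. Its difference was -2.11 ± 0.40 (limma adjusted p = 0.0733). H2-Eb1 read 10.42 and 9.92 against 7.90 and 8.93. Replicate 1 was within or below the untreated range in these genes and replicate 2 lay above it but below the wild type.

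Among chemokines and cytokines, 9 of 18 members (50%) lay below both wild type arrays in both knockout arrays, against 22.8% of all genes. None of the members was called (limma). Ccl2, which draws monocytes through Ccr2, read 8.36 and 8.95 in wild type and 6.48 and 7.88 in knockout, with untreated values of 6.19 to 6.48 (difference -1.47 ± 0.35, limma adjusted p = 0.106). Il1b and Tnf, products of activated macrophages, read 6.30 and 6.01 against 5.37 and 5.43 and 5.0 and 6.22 against 4.56 and 4.81. Cxcl1, a neutrophil attractant, overlapped, at 6.35 and 6.22 against 5.21 and 6.65. In the Fcγ receptor list 4 of 5 members lay lower without overlap: Fcgr1, Fcgr3, Fcgr4 and Fcrl1. Of these, Fcrl1 is an Fc receptor-like gene and not an Fcγ receptor. Fcgr1 read 5.91 and 5.55 against 4.93 and 5.14, and Fcgr4 4.98 and 4.60 against 4.12 and 3.97. Fcgr2b, the inhibitory receptor, overlapped at 8.61 and 8.73 against 9.94 and 8.59. The complement list went both ways, with 8 of 15 lower (53.3%) and 3 of 15 higher (20%) without overlap and 0 called. The shares of all genes were 22.8% and 13.9%. C4b, a component of the classical pathway, read 7.42 and 7.19 against 8.03 and 8.17, and the near-identical copy C4a may share its signal. Cfi, the protease that inactivates C3b and C4b, read 7.38 and 7.83 against 6.15 and 6.58.

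Markers of other leukocytes were close to the low end of the scale. Both knockout arrays lay below both wild type arrays at 5 of 9 T and natural killer cell members and 4 of 9 neutrophil members. For B and plasma cells they did so at 1 of 6 (16.7%), below the 22.8% of all genes. The medians of these lists, in this order, were -0.19, -0.11 and -0.07. Cd3e, the defining T cell chain, read 4.80 and 4.66 against 4.68 and 4.69, and S100a8, abundant in neutrophils, read 4.42 and 4.25 against 4.54 and 4.48. None of the members of these 3 lists was called (limma).

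Matrix and scarring genes were lower in both knockout arrays at 13 of 18 members without overlap, with a median of -0.95 and 0 called. The list mean was 8.60 and 8.62 in wild type, 6.88 in knockout replicate 1 and 7.93 in replicate 2, against 7.26 to 7.65 untreated. Col1a1, the main fibrillar collagen chain of scars, read 7.76 and 7.86 against 6.28 and 6.96 (difference -1.19 ± 0.20, limma adjusted p = 0.0501). Tnc, a glycoprotein of injured matrix, read 10.40 and 9.63 against 6.14 and 7.64 (difference -3.12 ± 0.55, limma adjusted p = 0.0571). Fn1, fibronectin, read 12.27 and 11.23 against 7.10 and 9.31. In the untreated arrays Fn1 already stood at 10.06 and 11.16 in wild type and 8.38 and 8.14 in knockout, so for this gene the genotypes were apart before serum.

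In a further group of lists the knockout arrays parted, with replicate 1 near or below the untreated range and replicate 2 near the wild type. The tubule injury list averaged 9.79 and 9.31 in wild type, 7.13 in knockout replicate 1 and 9.23 in replicate 2, against 7.30 to 7.48 untreated. Replicate 1 lay below both wild type arrays at 14 of 14 members, and both knockout arrays at 6 of 14. Havcr1 (kidney injury molecule 1), shed by injured proximal tubule cells, read 13.23 and 12.56 against 7.17 in replicate 1 and 12.77 in replicate 2, where untreated wild type read 6.03 and 6.06 and untreated knockout 7.95 and 7.28. Krt20, a keratin of injured tubules, read 7.22 and 7.50 against 5.28 and 8.03. Replicate 2 lay between the wild type arrays for Havcr1 and above both for Krt20, so the groups overlapped. Timp1, an inhibitor of matrix proteases, did not follow this: it read 5.42 and 5.94 against 4.29 and 4.80 (difference -1.13 ± 0.19, limma adjusted p = 0.0501).

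The cell cycle list averaged 7.23 and 7.42 in wild type and 5.90 and 7.06 in knockout replicates 1 and 2, against 5.83 to 6.02 untreated. Mki67, present in dividing cells, read 9.68 and 10.30 against 6.01 and 9.24, and Top2a, which untangles DNA at division, 7.84 and 7.76 against 5.43 and 7.40. At 14 of 18 members both knockout arrays lay below both wild type arrays, 0 were called, and replicate 2 was above replicate 1 at 18 of 18. Fgg, a chain of fibrinogen, read 12.45 and 11.61 against 7.0 and 11.25, and the clotting list as a whole averaged 9.70 and 9.68 against 7.92 and 9.32. Among immediate early genes 9 of 12 were lower without overlap, and Fos read 5.72 and 5.93 against 4.48 and 5.15 (limma adjusted p = 0.0789).

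Markers of the glomerulus itself also parted the knockout arrays, and here the list means of replicate 1 lay below all 4 untreated arrays. The podocyte list averaged 10.23 and 10.61 in wild type, 9.13 in knockout replicate 1 and 10.40 in replicate 2, against 9.23 to 10.20 untreated. Podocyte genes were thus read in all 4 arrays, which does not check the purity of the extracts. Nphs1 (nephrin), the slit diaphragm protein of podocytes, read 12.06 and 13.23 against 9.96 and 12.75. For the endothelial list the means were 9.69 and 10.34 against 8.36 and 9.93, with 8.84 to 9.51 untreated. Emcn, a glycoprotein of capillary endothelium, read 12.68 and 14.14 against 10.52 and 12.65. The mesangial list averaged 8.90 and 9.09 against 7.43 and 8.64, with 7.76 to 8.25 untreated. The basement membrane list averaged 10.46 and 10.23 against 9.07 and 10.31, with 9.32 to 9.66 untreated. Col4a3, the collagen chain specific to the glomerular basement membrane and a few others, went the other way without passing the test, at 10.54 and 10.30 against 10.78 and 10.96. Lower without overlap were 2 of 16 podocyte members (12.5%) and 3 of 13 endothelial members (23.1%), below and near the 22.8% of all genes. The shares were higher for the mesangial list, with 7 of 11 (63.6%), and the basement membrane list, with 6 of 12 (50%). None of the members of these 4 lists was called (limma). A lower share of glomerular cells in the extract of replicate 1 was not tested.

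**Figure D3:**
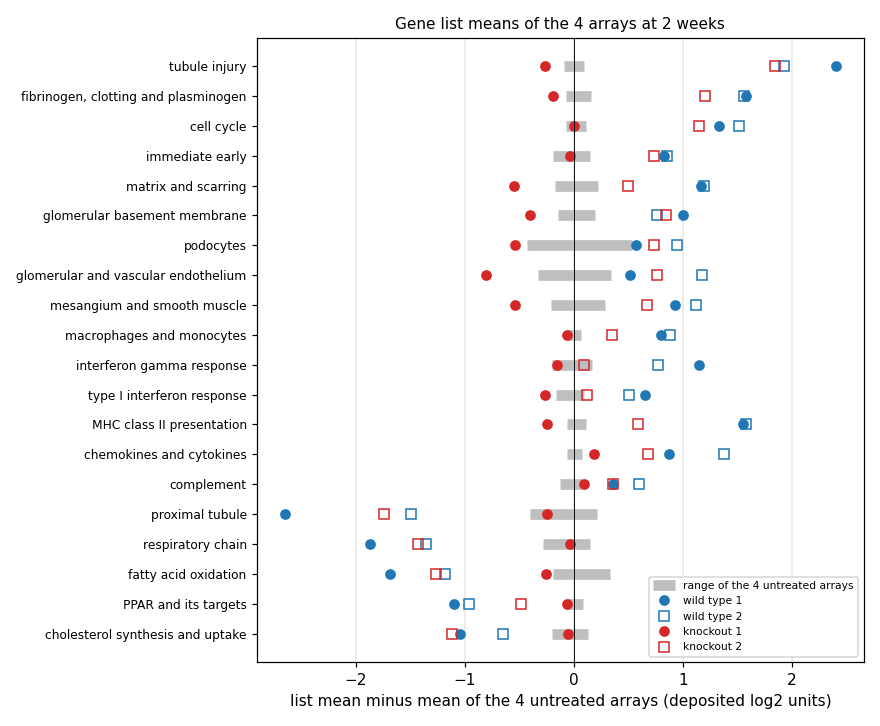
Mean deposited log2 value of each of 20 gene lists in the 4 arrays of 2 weeks, minus the mean of the 4 untreated arrays, with wild type in blue, knockout in red, replicate 1 as filled circles, replicate 2 as open squares and the range of the untreated arrays as a grey bar. For tubule injury the knockout arrays lie apart, at list means of 7.13 and 9.23, while for the interferon γ response both lie below the wild type, at 6.16 and 6.41.

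Metabolic genes of the tubule showed the reverse. The respiratory chain list averaged 11.32 and 11.83 in wild type, 13.15 in knockout replicate 1 and 11.76 in replicate 2, against 12.91 to 13.34 untreated. Replicate 1 was above both wild type arrays at 24 of 24 members, both knockout arrays at 11 of 24, and 0 were called. Cyc1, cytochrome c1 of complex III, read 13.05 and 13.45 against 15.39 and 13.67. For fatty acid oxidation the means were 9.69 and 10.18 against 11.11 and 10.11, with 10 of 23 members higher without overlap. Acox3, a peroxisomal oxidase of branched fatty acids, read 9.53 and 9.81 against 12.92 and 11.43, and Cpt1a, the gatekeeper of mitochondrial uptake, 13.66 and 13.77 against 15.57 and 14.01. The untreated range of the fatty acid oxidation list was 11.18 to 11.70. In both lists the wild type arrays and replicate 2 lay below all untreated arrays, while replicate 1 lay within the untreated range for the respiratory chain and just below it for fatty acid oxidation.

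Lipid regulators and their targets followed in part. In the PPAR list 9 of 17 members were higher without overlap, 2 of 17 lower, and 0 called. Ppara, the receptor that drives fatty acid oxidation genes, read 8.18 and 9.47 against 10.52 and 10.28, and Cd36, a fatty acid uptake receptor, 9.55 and 9.70 against 14.80 and 10.80. Angptl4, a secreted inhibitor of lipoprotein lipase, read 8.19 and 7.92 against 9.16 and 9.51, and Lpl itself 9.74 and 9.85 against 13.30 and 10.83. Untreated knockout arrays were already above untreated wild type arrays for Cd36 (14.33 and 13.52 against 11.42 and 11.12). Within fatty acid and triglyceride synthesis 5 of 20 members were higher (25%) and 4 of 20 lower (20%) without overlap. The shares of all genes were 13.9% and 22.8%. Lpin1, a phosphatase of triglyceride synthesis, read 8.27 and 8.73 against 10.89 and 9.90 (limma adjusted p = 0.0891), and Scd1, the desaturase that makes oleate, 10.97 and 12.62 against 9.89 and 10.66. Cholesterol synthesis genes gave 0 of 13 higher and 2 of 13 lower (15.4%) without overlap, both below the shares of all genes. Hmgcs1, an early enzyme of that pathway, overlapped at 9.92 and 10.59 against 13.14 and 10.56. Nr1h4 (the bile acid receptor FXR), singled out after its values were seen, read 10.93 and 11.37 against 14.13 and 13.70 and was called without the 18-hour arrays of replicate number 2, but not with them (limma adjusted p = 0.101).

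Male-biased kidney genes had the largest median difference of the 36 lists described. Over 16 male-biased genes the mean was 9.97 and 9.83 in wild type, 16.13 in knockout replicate 1 and 12.13 in replicate 2. Before serum the wild type means were 10.39 and 9.96 and the knockout means 15.81 and 15.02, so replicate 2 lay between the genotypes. At 15 of 16 genes both knockout arrays were above both wild type arrays, the median difference was 3.93, and 0 were called (limma). Slc7a13, an amino acid carrier of the proximal tubule, read 7.45 and 5.39 against 17.22 and 11.26 (difference 7.82 ± 3.64, limma adjusted p = 0.264). Cyp2e1, an alcohol-oxidising cytochrome, read 10.15 and 11.28 against 18.15 and 15.09. Kap, the kidney androgen-regulated protein, was near the top of the scale in all untreated arrays (19.06 to 19.72) and read 15.68 and 16.90 against 19.67 and 17.90 at 2 weeks (limma adjusted p = 0.0863). Pzp, a protease inhibitor, read 6.06 and 5.74 against 15.03 and 8.40. The standard errors of these genes were wide, 3.64 for Slc7a13. The 18-hour arrays of replicate number 2 and knockout replicate 2 of 2 weeks stood apart from their partners on this list. All of them enter the spread, and their part in the wide errors was not tested. No member of this list was among the 11 genes called without the 18-hour arrays of replicate number 2. Cyp4a12a and Cyp4a12b are near-identical copies and are counted in the list without being described apart.

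Female-biased genes were fewer, with 5 of 6 measured. Their mean was 9.93 and 10.76 in wild type and 8.67 and 8.83 in knockout at 2 weeks, and 14.46 and 13.95 in untreated wild type. The wild type values at 2 weeks thus lay nearer to the knockout than before serum. Abcc3, an exporter of organic anions, read 8.52 and 8.77 in wild type at 2 weeks against 12.85 and 12.29 untreated, and 5.96 and 6.69 in knockout. Slc7a12, another amino acid carrier, read 13.42 and 12.90 against 9.46 and 10.92. Cyp4a14, a fatty acid hydroxylase, read 14.38 and 16.27 against 8.31 and 14.21. Akr1c18, a steroid-reducing enzyme, overlapped, at 6.61 and 8.10 against 7.63 and 5.78. Slc22a7, a carrier of organic anions, also overlapped and went the other way on average (difference 2.05 ± 1.70). Wild type read 6.71 and 7.75, knockout replicate 1 stood 4.77 above their mean and replicate 2 read 6.56, so its knockout arrays were far apart. At 3 of the 5 genes both knockout arrays lay below both wild type arrays, and 0 were called (limma).

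**Figure D4:**
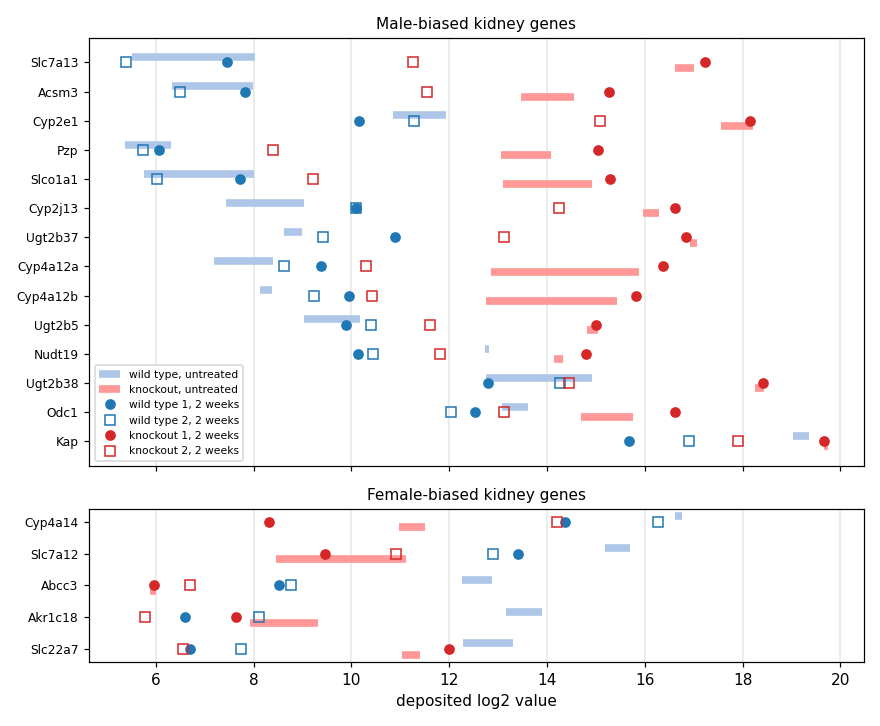
Deposited log2 values of 14 male-biased and 5 female-biased kidney genes in the arrays of 2 weeks, wild type in blue and knockout in red, replicate 1 as filled circles and replicate 2 as open squares, with pale bars for the untreated arrays of each genotype. Knockout replicate 1 lies with the untreated knockout for the male-biased genes, as for Slc7a13 at 17.22, and replicate 2 lies between the genotypes, at 11.26.

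A choice of genes that used no 2-week array was made to describe these 4 arrays. From the 8 untreated and 6-day arrays alone, 894 genes (2.97%) differed by genotype, 406 higher (1.35%) and 488 lower (1.62%) in knockout, and 1139 (3.78%) by serum, 807 higher (2.68%) and 332 lower (1.1%) at 6 days. The 406 genotype genes higher in knockout averaged 8.46 and 8.57 in wild type and 10.46 and 9.14 in knockout at 2 weeks. Both knockout arrays were above both wild type arrays at 274 of them (67.5%), against 13.9% of all genes. Of the 488 lower ones, 217 (44.5%) lay lower without overlap, against 22.8%. Replicate 2 thus lay nearer to the wild type than replicate 1 in the first set. At 2 weeks 1 of the 406 was called higher and 1 of the 488 lower, against 0.0365% and 0.146% of all genes.

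The 807 genes that serum raised by 6 days averaged 8.39 and 8.52 in wild type at 2 weeks, 7.45 in knockout replicate 1 and 8.29 in replicate 2, against 7.45 to 7.62 untreated. Replicate 1 was below both wild type arrays at 700 of the 807 and replicate 2 at 404, against 38.3% and 40.4% of all genes. Tnfrsf12a, the receptor of the cytokine TWEAK and among the genes of this set with the largest serum response, read 11.80 and 11.02 against 8.17 and 11.28. At 2 weeks 6 of the 807 were called lower and 1 higher, against 0.146% and 0.0365% of all genes. The 332 genes that serum lowered averaged 8.47 and 8.52 in wild type, 8.90 in knockout replicate 1 and 8.59 in replicate 2, against 9.13 to 9.28 untreated. Inmt, a methyltransferase of that set, read 11.06 and 12.75 against 16.73 and 12.83. In both serum sets replicate 1 was the array nearest to the untreated mean.

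**Figure D5:**
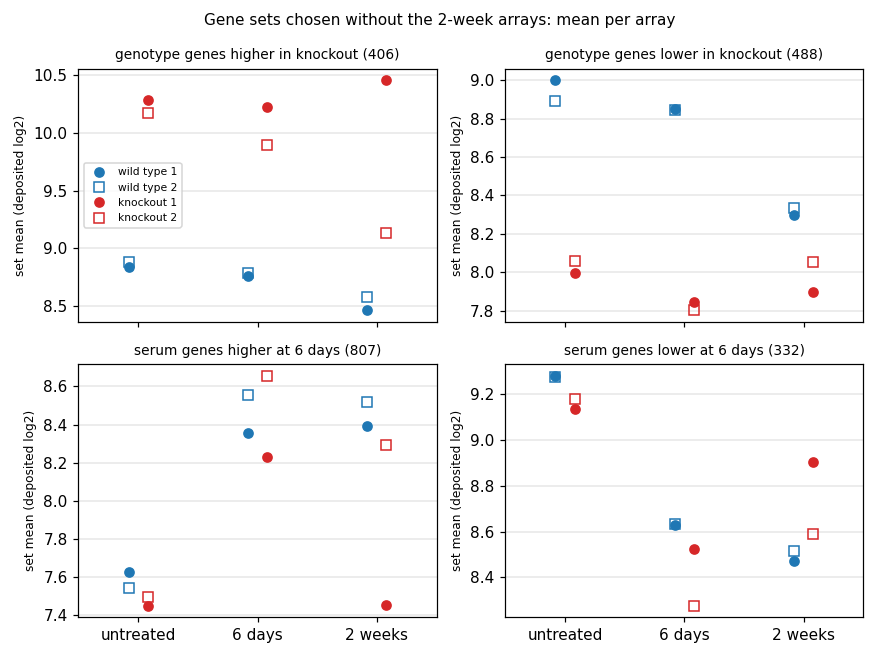
Mean deposited log2 value per array of the 4 gene sets chosen on untreated and 6-day arrays, shown for untreated, 6-day and 2-week arrays, with wild type in blue, knockout in red, replicate 1 as filled circles and replicate 2 as open squares. In the set that serum raised, knockout replicate 1 of 2 weeks (7.45) lies with the untreated arrays and replicate 2 (8.29) with the wild type.

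The last question was whether the genotype difference at 2 weeks differed from that without serum or at 6 days. Neither contrast called a gene: 0 of 30142 (0%) passed against the untreated difference, with 2244 genes at an unadjusted limma p under 0.05 and a smallest adjusted p of 0.431, and 0 (0%) against the 6-day difference, with 2617 and 0.267. The genes with the smallest p included Irf1, Ly86 and Ciita, described above. For Irf1 the 2-week difference minus the untreated one was -1.03 ± 0.17, and minus the 6-day one -1.24 ± 0.17. The same values for Ly86 were -0.98 ± 0.14 and -0.97 ± 0.14. For Ciita they were -0.94 ± 0.16 and -1.11 ± 0.16, again as differences of differences. For all 3 genes the limma adjusted p was 0.431 against untreated and 0.267 against 6 days. Cxcl10 gave -1.41 ± 0.23 against 6 days (limma adjusted p = 0.292). Complement genes were among the leading ones against 6 days too. C4b gave -2.92 ± 0.49 (limma adjusted p = 0.292) and C4a -1.58 ± 0.27 (limma adjusted p = 0.37). Both were higher in knockout at 2 weeks, so their genotype difference was larger at 6 days. Rgs16, a regulator of G protein signals called at 2 weeks (5.93 and 5.77 against 4.85 and 5.06), gave -1.11 ± 0.19 against the untreated difference.

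In the other direction, Sec14l3 gave 3.24 ± 0.52 against the untreated difference, and its knockout arrays at 2 weeks (6.94 and 6.19) lay near the wild type (5.88 and 6.09), whereas untreated values were 9.10 and 8.97 in wild type and 6.42 and 6.33 in knockout. Rdh16, a retinol dehydrogenase, gave 2.11 ± 0.41 and 2.59 ± 0.41 (limma adjusted p = 0.53 and 0.284), with 10.13 and 10.44 in wild type at 2 weeks against 12.40 and 12.64 untreated and 11.40 and 10.98 in knockout. In these genes the wild type was the group that stood away from its untreated value. Slc17a2, an anion carrier singled out after its values were seen, had the same form: wild type read 7.66 and 7.47 untreated and 5.41 and 5.57 at 2 weeks, and knockout 4.59 and 4.42 and 4.54 and 4.59. It was called in both contrasts without the 18-hour arrays of replicate number 2, at 2.13 ± 0.18 against untreated (limma adjusted p = 0.0223) and 2.29 ± 0.18 against 6 days (limma adjusted p = 0.0123).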

How the data were processed

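The authors deposited a table of log2 values per probeset of 16 Affymetrix arrays. Per the submitters' processing notes it came from Affymetrix Expression Console and Transcriptome Analysis Console, with neither version nor normalization given in the sources used here. Array medians were 5.57 to 5.90, the highest being that of wild type replicate 2 of 2 weeks. Of 72688 probesets, 30604 carried exactly 1 symbol, and each of 30142 genes took its brightest over the 16 arrays. Groups came from the titles. limma 3.58.1 (R 4.3.3) fitted 8 group means with an intensity trend (8 residual and 3.03 prior degrees of freedom), tested on simulated data first. The number of arrays limits the precision. Members and lists were chosen with earlier results of these data known. Genes were named by the largest called differences in each direction, completed by p-value, and by members marked in the lists. Numbered predicted transcripts, pseudogenes and receptor segments were counted, not named. The 36 lists hold 553 genes, 499 measured. Alternatives covered filters, probeset choice, scaling, spread models, array weights, left-out arrays, a replicate block and a tubule covariate. Sequences came from RefSeq (GRCm38.p6).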

Additional observations from a re-analysis of the deposited data

Results flagged for a closer look

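At 8 called genes both wild type arrays of 2 weeks lay on one side of their own untreated mean and both knockout arrays on the other side of theirs. The value given for each is knockout minus wild type at 2 weeks. Of the nameable called genes these were 8 of 46 (17.4%), against 8.59% of all genes. The called genes were chosen for a gap between the genotypes in these same arrays. A higher share among them is therefore built into the choice and is no separate result. The difference between the changes is the contrast with untreated mice, which called 0 genes (limma).

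Klf9 (difference 1.38) stood at -1.29 and -1.10 from the untreated mean in wild type and at 0.05 and 0.05 in knockout. Rgs16 (difference -0.90) stood at 1.05 and 0.89 in wild type and at -0.25 and -0.04 in knockout. Adamts6 (difference 0.99) was the member with the knockout farther from untreated, at 0.83 and 1.04, against -0.24 and -0.23 in wild type. Prr5 (difference 1.03) stood at -0.58 and -0.44 in wild type and at 0.42 and 0.56 in knockout. Gprin3 (difference -1.34) stood at 0.25 and 1.03 in wild type and at -0.17 and -0.22 in knockout. Susd3 (difference 1.21), Themis2 (difference -0.70) and Dcaf4 (difference -0.70) had knockout arrays within 0.27 of their untreated mean.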

How the results depend on the processing

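The count of 55 called genes at 2 weeks depended on the array set and the model. It was 60 with probesets averaged and 49 with robust moderation. It was 17 without genes below the median brightness (7 higher, 10 lower), 34 after quantile normalization, 18 after centring on array medians and 34 without the intensity trend, and 0 with array weights (1531 at an unadjusted limma p under 0.05), with the 4 arrays of 2 weeks alone (1146) and with the tubule covariate (4272). It was 11 without the 18-hour arrays of replicate number 2 and 11 without any 18-hour array, where each contrast of differences gave 1 gene, Slc17a2. These cuts to the arrays leave fewer arrays in the spread; the cause of the other moves was not tested. Leaving out each 2-week array in turn gave 0 to 5331 calls (0 without knockout replicate 1, 5331 without knockout replicate 2, 4480 without wild type replicate 1, 9 without wild type replicate 2). The contrast with untreated mice then gave 0 to 1664 calls, highest without wild type replicate 1, and that with 6 days 0 to 1281, highest without knockout replicate 2. In settings chosen after seeing the data, 13 arrays without the 18-hour replicate 2 arrays and without 1 further array of 2 weeks gave 6 calls with knockout replicate 1 left out and 3368 with wild type replicate 1 left out. The replicate block gave 35 calls, 31 of them among the 55; the deviations of same-numbered arrays correlated at 0.04 (untreated), -0.68 (18 hours), 0.14 (6 days) and -0.20 (2 weeks), so the numbers were not taken as pairs. The replicate block changed no call of either contrast of differences.

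The 33 called genes that are named kept their direction in every setting that tested them. The median of the genotype genes lower in knockout was -0.22 after centring and -0.22 to -0.40 with an array left out. The other chosen sets moved more with an array left out: 0.42 to 1.49 for genotype genes higher in knockout, -0.16 to -0.92 for genes raised by serum and 0.054 to 0.31 for genes lowered by it, in each set nearest to 0 without knockout replicate 1 and farthest without knockout replicate 2. With the tubule covariate 1 gene, Adm, remained in the set raised by serum (0.11), and no gene in the set lowered by it. Reversed differences, all of genes not called, were Cd3e 0.039 and Greb1 0.045 after quantile normalization and 0.041 and 0.040 after centring, and, with the tubule covariate, Aqp2 0.29, Cd68 0.053, Cxcl1 0.28, Fcgr2b -0.015, Krt20 0.50 and Nphs1 0.31. With 1 array left out, differences crossed 0 at Aqp2 (-2.17 to 1.85), Cxcl1 (-1.08 to 0.37), Fcgr2b (-0.079 to 1.27), Krt20 (-2.08 to 0.67), Nphs1 (-2.68 to 0.11), Akr1c18 (-1.57 to 0.28), Arntl (-1.60 to 0.28), Cd3e (-0.12 to 0.019), C1qa (-0.29 to 0.39) and Dbp (-1.48 to 1.0). With 2 arrays per group and values near the low end of the scale for many leukocyte genes, small differences could not be resolved.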

Other observations

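Lists not described above gave smaller or divided differences, and 0 of their members were called (limma). In the distal nephron list 4 of 12 members were higher in both knockout arrays without overlap, against 13.9% of all genes. Umod (uromodulin), made by the thick ascending limb, read 16.73 and 16.72 in wild type and 17.57 and 17.58 in knockout, with 17.51 to 18.08 untreated. Slc12a1, the salt carrier of the same segment, read 13.93 and 14.09 against 15.02 and 15.21. Aqp2, the water channel of the collecting duct, overlapped, and its wild type arrays stood far apart, at 13.88 and 9.86. Of the antioxidant genes 5 of 12 were higher without overlap. Gpx3, a secreted glutathione peroxidase made by proximal tubule, read 15.61 and 14.91 against 16.75 and 16.29 (difference 1.26 ± 0.27, limma adjusted p = 0.0885), and Nqo1, a quinone reductase, 7.64 and 7.80 against 8.80 and 8.57.

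Clock genes split the wild type arrays. Arntl, an activator of the clock, read 8.62 and 6.75 in wild type and 7.01 and 7.04 in knockout, and Dbp, an output gene, 6.77 and 9.24 against 7.76 and 7.77. The hour of harvest is not given in the sources used here, and its part in the called genes Usp2 and Klf9, known to follow the clock, was not tested. Tef, another output gene, lay higher in both knockout arrays, at 9.59 and 10.22 against 11.26 and 10.95 (limma adjusted p = 0.0989). In retinoid metabolism 7 of 21 members were lower and 4 of 21 higher without overlap, among them Aldh1a2, which makes retinoic acid, at 7.22 and 7.19 against 5.79 and 6.56, and Aldh1a7 at 6.68 and 6.65 against 7.80 and 7.91. Prostaglandin and epoxide genes gave 8 of 19 lower and 1 of 19 higher. Endoplasmic reticulum stress genes gave 2 of 11 lower (18.2%) and 3 of 11 higher (27.3%). Hspa5, the main chaperone of this list, read 12.01 and 11.42 against 12.08 and 12.06. Of all genes, 22.8% lay lower and 13.9% higher without overlap.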
